A study of Mus musculus with 2 samples.

Results

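The cells described here were the glioma cells in which 4 genes, Sox9, Rlbp1, Moxd1 and Cd93, took the largest part of the RNA, 537 of the 5370 cells kept from 2 libraries. They were chosen by their measured values. Of each library, barcodes with at least 500 genes, at least 3000 unique molecular identifiers (UMIs, one per captured RNA molecule) and at most 15% mitochondrial UMIs were kept, 2749 in pool 1 and 2621 in pool 2. The score of a cell was its summed UMIs of the 4 genes over its total UMIs, with each gene first divided by its mean level in the pool, so that the mean score was 4. The top 10% of each pool, 275 and 262 cells, are called high-score cells below. They are compared with the lower 50% by score, 1374 and 1310 cells, and the 1100 and 1049 cells between are called the middle 40%.

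Both libraries came from 1 group of tumours, made in C57BL/6 mice by in utero somatic transfer of PDGFB, a ligand of the receptor Pdgfra, into the ventricles of the embryonic telencephalon. About 40 days after birth the tumours were removed and their GFP-positive cells sorted. Each library mixed cells of 2 tumours before capture of 4000 cells, which tumour a cell came from is not resolved here, and there was no control group. The number 3301 stands in the titles of both libraries and its meaning is not given in the sources used here. The pools also differed in sex chromosome genes: of the kept cells 2591 in pool 1 and 0 in pool 2 had UMIs of Xist without a Y-linked gene, and 0 and 1975 had a Y-linked gene without Xist. Xist was not among the genes listed for pool 2, and no Y-linked gene was among those listed for pool 1. The counts of 0 follow from these absent entries. The libraries held 33.9 M and 40.9 M UMIs. Median depth was 10091 and 13162 UMIs in high-score cells against 8539 and 12577 in the lower 50%, and the median share of mitochondrial UMIs was 2.73% and 1.02% against 2.97% and 1.52%. The libraries shared 4 cell barcodes, 2 of them among kept cells. With n = 2 pools, p-values below do not measure the spread between tumours. They set a difference against the spread between pools over all score groups, an estimate shared in part across genes. A single gene whose pools disagree can therefore pass. Intervals are 95% and cover counting error only.

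Radial glia are the stem cells of the embryonic brain. They span the wall of the ventricle, carry the intermediate filament proteins vimentin and nestin, and give rise to neurons, astrocytes and oligodendrocyte precursors, while part of their gene programme returns in adult neural stem cells and in reactive or tumour glia. Sox9 is a transcription factor that brings neural stem cells to glial fates and is also known for switching on cartilage matrix genes. Rlbp1 encodes CRALBP, a carrier of 11-cis retinoids known from retinal Müller glia, Moxd1 encodes a protein of the copper monooxygenase family, and Cd93 encodes a surface lectin known from endothelial and myeloid cells. The annotation (GENCODE vM21, GRCm38) places the protein-coding genes at chr11:112782224-112787760 (Sox9, + strand), chr7:79374870-79387048 (Rlbp1, − strand), chr10:24223517-24302790 (Moxd1, + strand) and chr2:148436640-148443563 (Cd93, − strand).

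The 250 bases before the RefSeq start site are shown for 2 of these genes, Rlbp1 and Moxd1, and for Nes, which rose with the score, to set the start regions of genes that were high in the same cells side by side. They lie at chr7:79387028-79387277 on the − strand, chr10:24223267-24223516 on the + strand and chr3:87970843-87971092 on the + strand of GRCm38.p6. Capitals mark matches to the core of SOX binding motifs, ACAATG or ACAAAG, on either strand.
Rlbp1: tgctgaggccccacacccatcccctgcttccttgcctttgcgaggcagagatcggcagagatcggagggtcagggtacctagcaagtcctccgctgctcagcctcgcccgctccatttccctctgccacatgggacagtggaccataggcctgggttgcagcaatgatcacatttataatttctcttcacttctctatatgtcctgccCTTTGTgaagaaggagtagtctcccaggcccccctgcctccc
Moxd1: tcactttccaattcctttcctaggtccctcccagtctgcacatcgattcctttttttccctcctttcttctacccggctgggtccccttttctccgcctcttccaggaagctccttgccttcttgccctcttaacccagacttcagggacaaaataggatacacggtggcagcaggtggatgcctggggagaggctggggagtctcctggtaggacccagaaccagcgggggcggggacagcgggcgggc
Nes: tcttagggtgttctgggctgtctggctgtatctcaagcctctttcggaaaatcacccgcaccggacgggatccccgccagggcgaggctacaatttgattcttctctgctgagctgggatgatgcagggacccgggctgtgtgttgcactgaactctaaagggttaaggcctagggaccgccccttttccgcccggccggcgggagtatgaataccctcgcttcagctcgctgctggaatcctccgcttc
Rlbp1 held 1 match, whose first base lay 42 bases before the start site, and Moxd1 and Nes held 0. The motif was found in 25.2% of the 32851 windows of this length in the RefSeq table, so a match in 1 of 3 windows is near that share. The nuclear factor I motif TTGGC, searched on both strands, had 0 matches in these windows and was found in 41.5% of all.

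Since the 4 genes chose the cells, their levels in them are a description. Values are CPM, the UMIs of a gene scaled to 1000000 UMIs of all genes summed over the cells of a group, and are not divided by gene length, so the level of a gene is compared only with itself. Sox9 stood at 279 CPM in high-score cells, 100.4 CPM in the middle 40% and 14.5 CPM in the lower 50% of pool 1, and at 322, 110.1 and 13.3 CPM in pool 2. Moxd1 was at 149 against 1.79 CPM and at 165 against 3.46 CPM in high-score cells and the lower 50%. Cd93 was at 188 against 0.859 CPM and at 184 against 2.71 CPM. Rlbp1 separated the groups least. It was at 259.9 CPM in high-score cells, 234 CPM in the middle 40% and 98.2 CPM in the lower 50% of pool 1, and at 358, 248 and 68.3 CPM in pool 2, so that in pool 1 its level in high-score cells was close to that in the middle group.

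The score therefore ranked cells mostly by its rarer genes. Cd93 gave 40.7% and 33.7% of the summed score of high-score cells, Moxd1 28.3% and 28.4%, Sox9 22.1% and 24.7%, and Rlbp1 8.84% and 13.1%, where each gene gives 25% over all cells by construction. Cd93 was the largest part of the score in 46.5% and 40.8% of high-score cells, Moxd1 in 32.4% and 29.0%, Sox9 in 19.6% and 26.0%, and Rlbp1 in 1.45% (4 cells) and 4.20% (11 cells). All 4 genes were detected together in 63 and 88 high-score cells, 3 genes in 94 and 91, 2 in 86 and 66, and 1 in 32 and 17. The label of these cells names Sox9 and Rlbp1. Each gene was divided by its own mean, so Rlbp1, the gene with the most UMIs over all cells, seldom gives the largest part of a score. The lowest score among high-score cells was 10.3 in pool 1 and 10.8 in pool 2, the highest score outside was 10.2 and 10.8, and 607 and 609 kept cells scored 0. Scores ran on across the limit with no gap, so high-score cells are one end of a range of scores.

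Whether the 4 genes went together was examined by ranking the cells on 3 of them and measuring the fourth, which then had no part in the choice of cells. The 4 genes were themselves taken up with earlier results of these data known. Their rise and its p-values are therefore no independent support that they go together. Sox9 was at 155 CPM in cells high in the other 3 genes against 62.5 CPM in the lower 50% of pool 1, and at 154 against 49.9 CPM in pool 2. The difference was 1.54 ± 0.12 on the log2 scale (SE, with an adjusted p of 9.58e-08 from edgeR's quasi-likelihood test, Benjamini-Hochberg over all genes, pool as block). Sox9 was higher in cells chosen without it in both pools, and in that ranking 5.62% of all genes tested were called higher.

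Moxd1 behaved alike, at 72.5 against 28.1 CPM and 84.2 against 29.4 CPM (log2 difference 1.48 ± 0.11, edgeR adjusted p = 0.000108), where 1.62% of genes were called higher. For Cd93 the levels were 89.6 against 15.2 CPM and 80.7 against 24.5 CPM (log2 difference 2.20 ± 0.19, edgeR adjusted p = 0.000803), where 2.89% were. In the fit Sox9, Moxd1 and Cd93 lay 2.91, 2.79 and 4.60-fold above the lower 50%, and each was above the middle 40% in both pools. Rlbp1 was at 201 against 175 CPM in pool 1 and at 267 against 135 CPM in pool 2, a log2 difference of 0.19 in pool 1 and 0.98 in pool 2. Its fitted difference of 0.67 ± 0.14 passed (edgeR adjusted p = 0.00667, with 7.76% of genes called higher), but not without the pool as block (adjusted p = 0.157) nor in DESeq2 (adjusted p = 0.16).

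**Figure D1:**
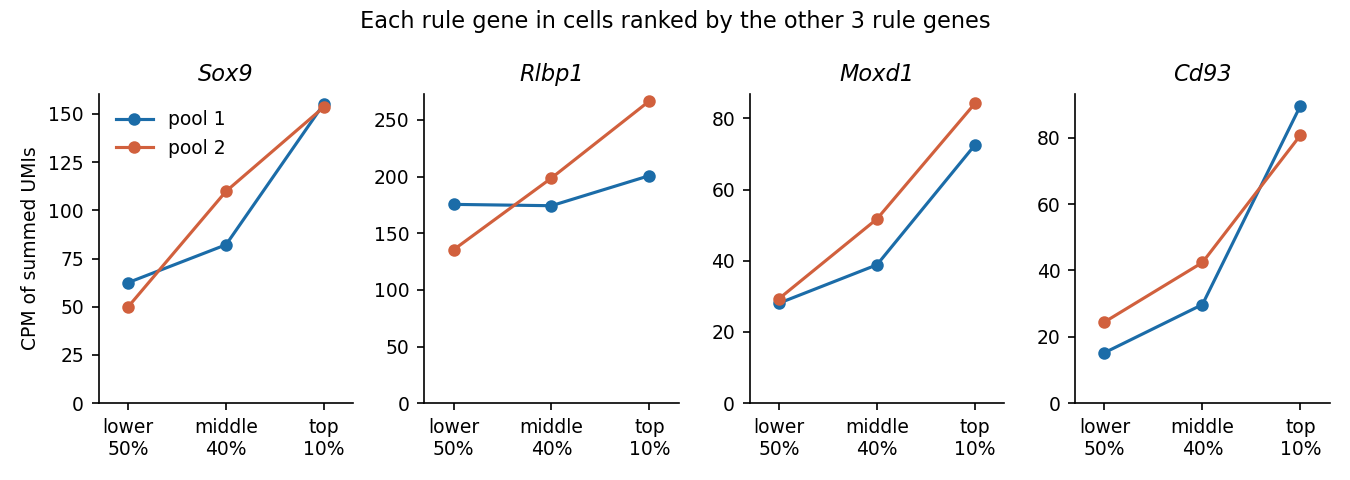
Level of each rule gene (CPM of summed UMIs, axes from 0) in the lower 50%, middle 40% and top 10% of cells ranked by the other 3 rule genes, with 1 line per pool. Sox9, Moxd1 and Cd93 rise in both pools, from 62.5 and 49.9 to 155 and 154 CPM for Sox9, while Rlbp1 in pool 1 moves only from 175 to 201 CPM.

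Within single cells the genes were loosely tied. Over all kept cells thinned to 3000 UMIs, Spearman's rho between pairs of the 4 genes ranged from 0.004 (Rlbp1 and Cd93) to 0.10 (Sox9 and Cd93) in pool 1 and from −0.001 (Rlbp1 and Cd93) to 0.14 (Sox9 and Rlbp1) in pool 2. The cells of a pool share their library, and such weak values in sparse counts are given as a description. Sox9 and Cd93 were found together in 115 and 133 high-score cells, and Sox9 and Rlbp1 in 140 and 169.

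High-score cells carried more RNA of radial glia and intermediate filament genes than the lower 50%. Across the 14135 genes tested, the 4 rule genes left out, 666 (4.71%) were higher in high-score cells and 795 (5.62%) were lower (edgeR, adjusted p under 0.05), against 11 and 57 without the pool as block and 339 and 397 in DESeq2. Sums over cells cannot tell apart fewer cells with a gene's RNA and less of it in each cell. The genes named below were the same way in both pools unless stated.

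Vim, which encodes vimentin, had the largest fold of all genes called higher at 20 CPM or more, and the smallest p. Its level was 999.5 CPM in high-score cells, 608 CPM in the middle 40% and 255 CPM in the lower 50% of pool 1, and 1180.3, 658 and 288 CPM in pool 2. High-score cells were thus above the middle group and the middle group above the lower in each pool (log2 difference between high-score cells and the lower 50% 2.07 ± 0.06, edgeR adjusted p = 1.04e-10, and adjusted p = 0.002 without the block). After thinning to 3000 UMIs a cell, Vim was detected in 65.5% (exact Clopper-Pearson interval 59.5 to 71.1%) of high-score cells and 28.7% (26.4 to 31.2%) of the lower 50% in pool 1. In pool 2 the shares were 83.6% (78.5 to 87.9%) and 36.4% (33.8 to 39.1%), and without thinning they were 80.4% and 48.4% in pool 1 and 93.5% and 61.3% in pool 2. Barcodes with microglia genes, at a median of 9002 and 10069 UMIs, gave Vim in 3 of 10 and 3 of 12 when thinned (30% and 25%). They also held UMIs of the tumour cell gene Pdgfra in 60% and 50%. With 10 such barcodes in pool 1 the interval of their share was 6.67 to 65.2%, too wide to set a background. By level, Vim was at 255 CPM (exact Poisson interval 247 to 264) in the lower 50% and 139 CPM (81.0 to 223) in these barcodes of pool 1. In pool 2 it was at 288 CPM (281 to 297) and 376 CPM (302 to 462). Whether Vim UMIs in the lower 50% are background was not tested.

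Nes, the second filament gene of radial glia, was at 133 against 58.1 CPM in pool 1 and at 139 against 75.4 CPM in pool 2 (log2 difference 1.10 ± 0.09, edgeR adjusted p = 3.91e-06). Hopx, a homeodomain-only protein that marks outer radial glia and quiescent stem cells, was at 25.8 against 10.3 CPM and 57.1 against 16.5 CPM (1.68 ± 0.15, adjusted p = 4.75e-06). Both were higher in the high-score cells of each pool, and Hopx was higher in pool 2 than in pool 1 in high-score cells. Fabp7, the brain lipid-binding protein of radial glia, was abundant in every group and rose by less, from 1926 to 2613 CPM and from 2042 to 3098 CPM (0.59 ± 0.05, adjusted p = 5.45e-06). Slc1a3, the glutamate transporter GLAST, was at 330.2 against 251 CPM and 434 against 236 CPM (0.71 ± 0.09, adjusted p = 9.34e-05). Without the pool as block Nes, Hopx and Fabp7 did not pass, at adjusted p = 0.0609, 0.155 and 0.104.

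Of 23 listed radial glia and neural stem genes 21 were tested, of which 10 were higher and 1 was lower. Over all genes 4.71% were called higher and 5.62% lower. The median log2 difference of the 21 was 0.52 against −0.002 over all genes. The median of their log2 CPM ratios was 0.19 in pool 1 and 0.53 in pool 2. In DESeq2 9 were higher and 1 lower, and without the pool as block 1 was higher, Vim. The 10 were Vim, Nes, Hopx, Fabp7 and Slc1a3 above, the Notch target Hes1 (0.65), the matrix gene Tnc (1.40), the serine synthesis enzyme Phgdh (0.56), Ddah1 (0.31) and the transcription factor Lhx2 (0.55). Lifr, a cytokine receptor, was lower (−0.54). Without barcodes of astrocyte, oligodendrocyte or microglia genes, an alternative added after the data were seen, 9 were higher and 1 lower. The median was then 0.40, and Lhx2 no longer passed (0.41, edgeR adjusted p = 0.0932). Other genes by which radial glia are known did not pass. Pax6 was at 9.21 against 12.5 CPM and 9.68 against 5.13 CPM, Hes5 at 25.5 against 32.3 CPM and 35.3 against 15.04 CPM, and Prom1 was at 2.003 CPM or less in each of these groups. Sox2, shared by stem cells and glial precursors, was at 243 against 269 CPM and 319.5 against 266 CPM (adjusted p = 0.399). The name radial glia therefore held for a part of that list and not for all of its defining genes.

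**Figure D2:**
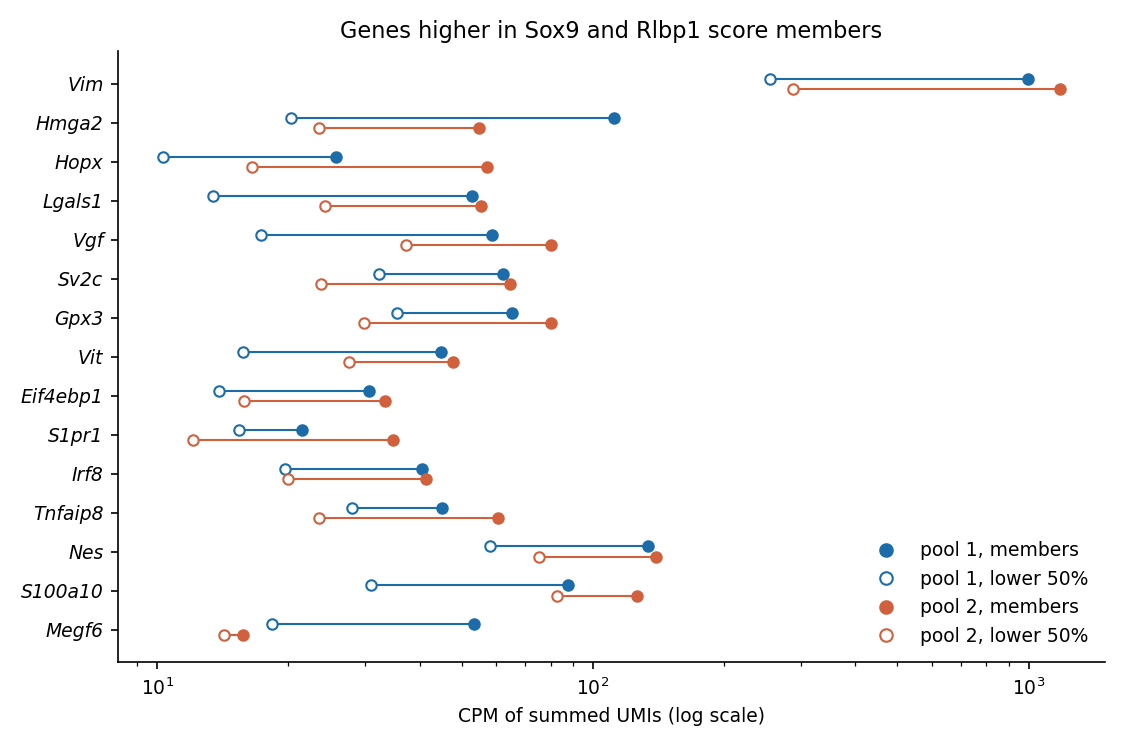
Levels (CPM of summed UMIs, log axis) of the 15 named genes of largest fold among those higher in high-score cells (filled) than in the lower 50% (open), with 1 line per pool. Vim has the highest levels, 999.5 and 1180.3 CPM, and Megf6 in pool 2 shows almost no distance between 15.7 and 14.2 CPM.

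Among the other genes of large fold, several encode proteins of growth control, the cell surface or the cytoskeleton. Hmga2, a chromatin protein of fetal stem cells and many tumours, was at 112 against 20.2 CPM in pool 1 and 54.7 against 23.4 CPM in pool 2 (log2 difference 1.95 ± 0.21, edgeR adjusted p = 2.04e-05), so that its difference was 2.46 in pool 1 and 1.22 in pool 2. Lgals1, which encodes galectin-1, was at 52.8 against 13.5 CPM and 55.5 against 24.3 CPM (1.60 ± 0.16, adjusted p = 1.14e-05). S100a10, the annexin A2 partner p11, was at 87.8 against 31.0 CPM and 126 against 82.5 CPM (1.05 ± 0.16, adjusted p = 0.000511). Tmsb10, a thymosin that binds actin and 1 of the 10 genes most like the score, was at 853 against 534 CPM and 991 against 491 CPM (0.91 ± 0.07).

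Vgf, a secreted neuropeptide precursor, was at 58.6 against 17.3 CPM and 80.1 against 37.2 CPM (1.45 ± 0.15, edgeR adjusted p = 1.57e-05). Sv2c, a vesicle protein, Gpx3, a secreted glutathione peroxidase, Vit, a matrix protein, Eif4ebp1, a repressor of translation initiation under mTOR, and Tnfaip8 had log2 differences of 1.26, 1.23, 1.17, 1.17 and 1.11. Irf8, a transcription factor best known from myeloid cells, was at 40.5 against 19.6 CPM and 41.3 against 19.99 CPM (1.11 ± 0.12, adjusted p = 2.43e-05). S1pr1, a lipid receptor, was at 21.5 against 15.4 CPM in pool 1 and 34.8 against 12.1 CPM in pool 2. Megf6 passed in the fit of both pools (1.03 ± 0.23, adjusted p = 0.00883), yet its log2 difference was 1.54 in pool 1 and 0.14 in pool 2.

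These genes did not all follow the same rule genes. With Moxd1 left out of the score, Vim stayed higher (1.66, edgeR adjusted p = 2.96e-05), as did Nes (0.86, adjusted p = 0.000772), Hopx (1.53, adjusted p = 0.000319) and Fabp7 (0.61, adjusted p = 0.00288). Hmga2 (1.12, adjusted p = 0.0753), Lgals1 (0.36, adjusted p = 0.393), Vgf (0.24, adjusted p = 0.725) and S100a10 (0.13, adjusted p = 0.693) no longer passed. Leaving out Sox9 gave Lgals1 1.90, Vgf 1.68 and S100a10 1.41, each past the threshold. S100a10 also did not pass without Cd93 (0.92, adjusted p = 0.0845). Without Moxd1 in the score Lgals1, Vgf and S100a10 thus fell to 0.36 or less. Hmga2 lost its call but kept a larger difference than Nes and Fabp7, in a ranking with 228 genes called higher against 666. The calls of the filament genes, Hopx and Fabp7 did not rest on any 1 of the 4 genes, with Vim between 1.66 and 2.28 over the 4 rankings.

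High-score cells split by the gene that gave the largest part of their score differed in the same genes. Those led by Moxd1 (89 and 76 cells) had Vgf at 56.3 CPM (exact Poisson interval 43.1 to 72.3) and 199 CPM (173 to 228), against 30.9 CPM (19.1 to 47.2) and 2.74 CPM (0.565 to 8.01) in those led by Sox9 (54 and 68 cells). Lgals1 was at 84.9 and 83.4 CPM in cells led by Moxd1 and at 26.5 and 14.6 CPM in cells led by Sox9. S100a10 was at 119 and 225 CPM against 67.6 and 46.6 CPM. Fabp7 ran the other way, at 2516 and 2542 CPM in cells led by Moxd1 and at 3081 and 3782 CPM in those led by Sox9. The contrast was wider in pool 2 than in pool 1 for all 4 genes, and as cells of 1 pool are no replicates it is given without a test.

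**Figure D3:**
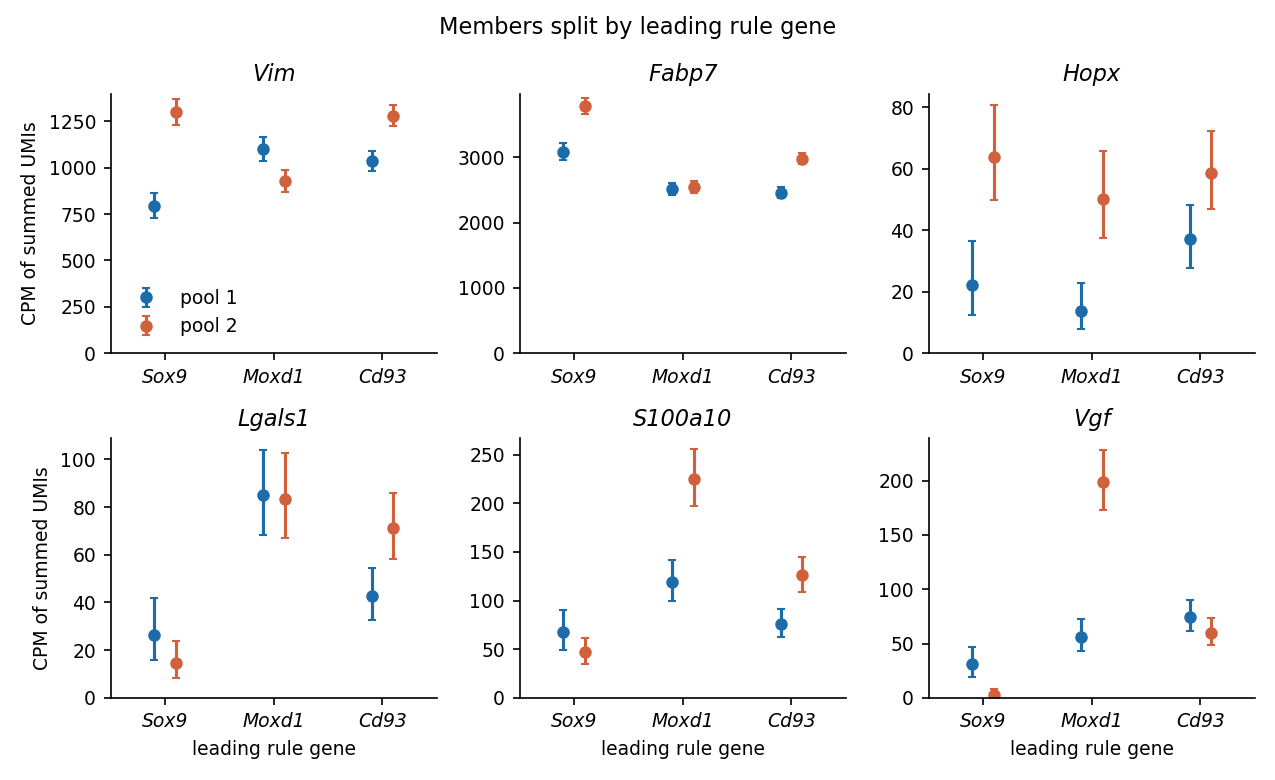
Levels (CPM of summed UMIs, axes from 0) in high-score cells split by the rule gene with the largest part of their score, with exact Poisson 95% intervals and 1 colour per pool. In pool 2 Vgf, Lgals1 and S100a10 are highest in cells led by Moxd1 (199, 83.4 and 225 CPM) and lowest in cells led by Sox9, while Hopx in pool 2 stays between 50.2 and 64.0 CPM.

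Vim rose with the number of rule genes detected in a high-score cell. In pool 1 it was at 426, 731, 921 and 1314 CPM in cells with 1, 2, 3 and 4 of the genes, and in pool 2 at 694, 805, 1219 and 1341 CPM. These groups were not matched on depth, and a cell with more UMIs can show more of the genes. Along the whole score Vim rose at every step. In pool 1 it went from 255 CPM in the lower 50% through 416, 523, 636 and 864 CPM. Between the 90th and 95th percentiles it was at 904 CPM, and above at 1103 CPM. In pool 2 the same steps were 288, 488, 575, 639, 921, 1091 and 1295 CPM. Nes rose at each step in both pools as well, from 58.1 to 138 CPM and from 75.4 to 146 CPM, while Fabp7 in pool 1 went from 2752 to 2462 CPM in the last step. Over thinned cells Vim had the highest Spearman correlation with the score among 10025 genes, with rho 0.19 in pool 1 and 0.27 in pool 2. Fabp7 came next (0.15 and 0.23), followed by Tmsb10, the elongation factor Eef1a1 and ribosomal protein genes.

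**Figure D4:**
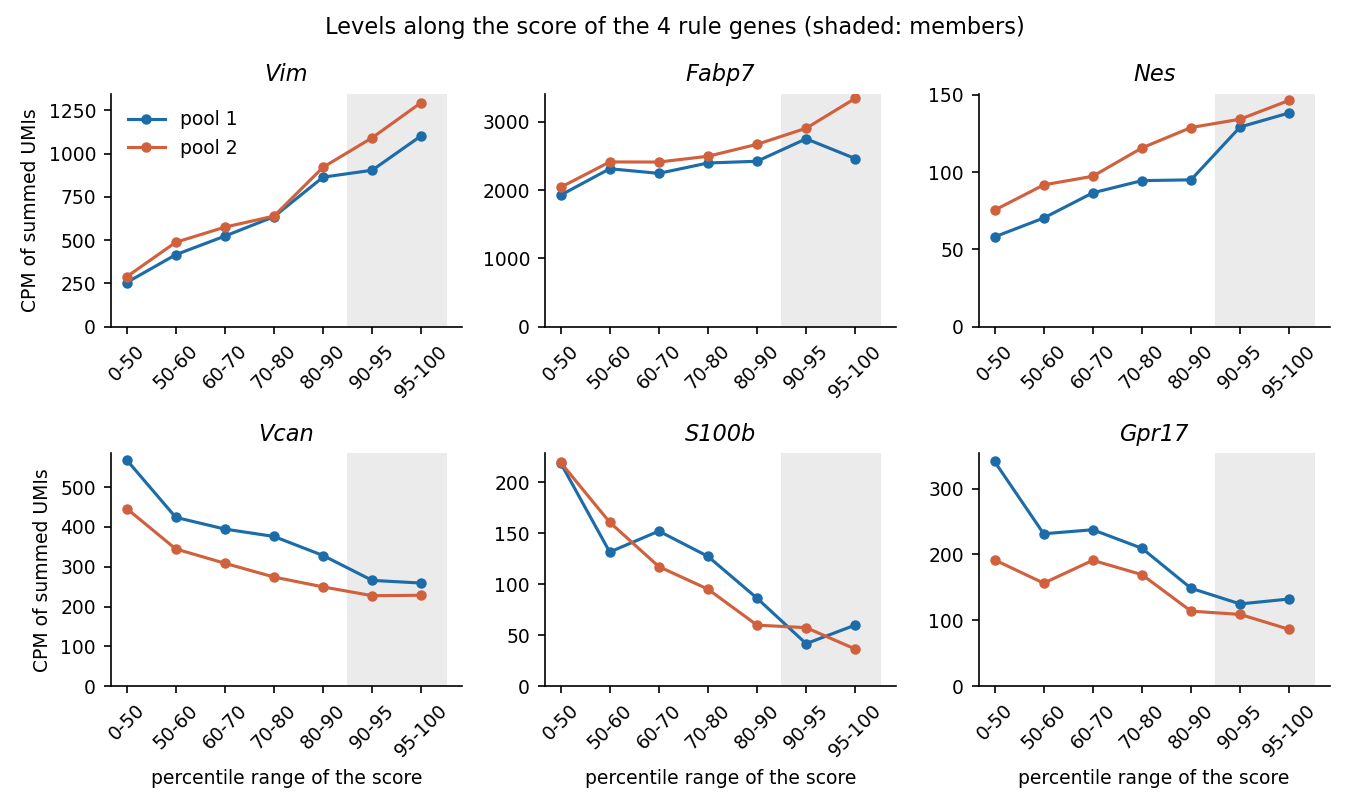
Levels (CPM of summed UMIs, axes from 0) over percentile ranges of the score of the 4 rule genes, 1 line per pool, with the high-score cells shaded. Vim climbs from 255 and 288 CPM to 1103 and 1295 CPM without a step at the edge of the shaded area, and Vcan falls from 568 and 446 CPM to 259 and 228 CPM.

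Some genes of the oligodendrocyte lineage were lower in high-score cells than in the lower 50%, while others did not pass. Of 18 oligodendrocyte precursor genes tested 0 were higher and 9 were lower, with a median log2 difference of −0.20. Over all genes, for this and the following cell type lists, 4.71% were called higher and 5.62% lower. Without barcodes of astrocyte, oligodendrocyte or microglia genes 0 of the 18 were higher and 8 lower, among them Ptgfrn (−1.68) and C1ql1 (−0.87). Vcan, a matrix proteoglycan, was at 263 against 568 CPM and 228 against 446 CPM (−0.97 ± 0.07, edgeR adjusted p = 9.27e-07). Gpr17, a receptor of precursors about to differentiate, was at 129 against 341 CPM and 99.2 against 192 CPM (−1.12 ± 0.10, adjusted p = 6.72e-06), and Tnr, tenascin-R, was at 537 against 832 CPM and 409 against 669.9 CPM (−0.60 ± 0.06). Among genes that did not pass, Pdgfra was at 1179 against 1311 CPM and 1205 against 1301 CPM (−0.07 ± 0.05, edgeR adjusted p = 0.531). Olig2, Cspg4 and Sox10 were singled out after their values were seen. Olig2 was at 625 against 586 CPM and 503 against 530.2 CPM (edgeR adjusted p = 0.549). Cspg4 was at 487 against 549.8 CPM and 535 against 527 CPM (edgeR adjusted p = 0.956). Sox10 was at 283 against 333 CPM and 324 against 350.4 CPM (adjusted p = 0.388).

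Committed precursor genes were lower in 12 of 14 tested, 0 were higher, and the median was −1.08. With the barcodes of astrocyte, oligodendrocyte or microglia genes left out, an alternative added after the data were seen, 10 of 14 were lower and 0 higher, and the median was −0.64. Enpp6, an early differentiation enzyme, had 2 UMIs in all high-score cells, at 0.307 and 0.262 CPM against 51.4 and 34.9 CPM in the lower 50% (adjusted p = 3.2e-05), where it was at 11.1 and 4.34 CPM without those barcodes. Neu4, a sialidase of the lineage, was at 9.82 against 96.7 CPM and 7.07 against 62.1 CPM (−3.16 ± 0.14, edgeR adjusted p = 6.59e-09). Gjc3, a gap junction gene of the lineage, was at 14.7 against 119 CPM and 16.5 against 99.96 CPM (−2.73 ± 0.13). Cryab, a small heat shock protein, was at 10.7 against 110.2 CPM and 21.7 against 128 CPM (−2.78 ± 0.17), and the homeobox gene Meox1 at 9.21 against 42.9 CPM and 5.23 against 50.1 CPM (−2.65 ± 0.24).

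Mature oligodendrocyte genes were lower in 14 of 14 and microglia and macrophage genes in 12 of 16 tested, with 0 higher in either list. The lower 50% held 25 and 33 barcodes with oligodendrocyte genes and 7 and 10 with microglia genes, against 0 and 1 and 0 and 1 among high-score cells. With all barcodes of astrocyte, oligodendrocyte or microglia genes left out, 4 of the 10 mature oligodendrocyte genes still tested were lower and 0 of 3 microglia genes were called (edgeR, with 0 at an unadjusted p under 0.05). Mbp, the gene of myelin basic protein, was at 33.1 against 254 CPM and 40.6 against 216 CPM, and without those barcodes at 33.8 against 65.0 CPM and 40.4 against 47.5 CPM (−0.52 ± 0.15, adjusted p = 0.0486). Enpp6, Neu4, Cryab, Gjc3, Meox1 and Car2 also stayed lower without them, whereas Apod, Ptgds, Mag and Trf no longer passed and Mal, C1qa and C1qb were no longer tested. All 15 named genes that were higher stayed higher, with Vim at 2.03 ± 0.07. Over all genes 505 were then higher and 597 lower.

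Markers of the other cell types of brain were looked at since Cd93 is best known from vessels and Sox9 from astrocytes. Of 16 endothelial genes 5 were tested and 0 called by edgeR or DESeq2, while at an unadjusted p under 0.05 2 were higher and 1 lower. In this list 9 genes were at 0 or not listed in high-score cells of each pool, and all 16 summed to 74.0 against 74.6 CPM and 92.6 against 70.1 CPM. Cldn5, the tight junction gene of brain endothelium, had 0 UMIs in high-score cells of either pool, and Pecam1 had 1 and 3. Ramp2, a co-receptor subunit for adrenomedullin, made up most of the sum at 67.8 and 80.1 CPM. Flt1, a receptor for vascular endothelial growth factor, was at 0.614 against 0.215 CPM and 3.40 against 1.33 CPM, with 2 and 13 UMIs in high-score cells, and Esam, an adhesion molecule of vessels, at 0.307 against 0.0715 CPM and 0.785 against 0.230 CPM, with 1 and 3 UMIs. The part of endothelial RNA in these results was not tested. Myeloid genes were likewise near 0 there, with C1qa at 0.614 and 7.59 CPM, and high-score cells of pool 2 held 1 barcode of microglia genes.

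Of 18 astrocyte genes tested 3 were higher and 6 lower, with a median of −0.12, where 4.71% and 5.62% of all genes were. With the barcodes of astrocyte, oligodendrocyte or microglia genes left out, 1 of 17 was higher and 7 were lower, with a median of −0.65. S100b, a calcium-binding protein of astrocytes and maturing oligodendrocyte precursors, was at 50.6 against 219 CPM and 48.4 against 219.7 CPM (−2.08 ± 0.10, edgeR adjusted p = 7.32e-09), and Aldoc and Slc1a2 were lower at −0.64 and −0.49. Gja1 and Aqp4 passed as higher with nearly all of their UMIs in pool 2. Gja1 had 0 UMIs in high-score cells of pool 1 and 64 in 5 cells of pool 2, where 4 high-score barcodes held astrocyte genes. Without these 4, Gja1 went from 16.7 to 0.529 CPM and Aqp4 from 15.7 to 1.85 CPM. The third gene, Mfge8, was at 57.1 against 46.4 CPM and 63.3 against 41.1 CPM (0.54 ± 0.11). Gfap, the astrocyte filament gene, had 12 and 26 UMIs in all high-score cells. Vim and Nes were therefore high in cells with Gfap near 0.

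**Figure D5:**
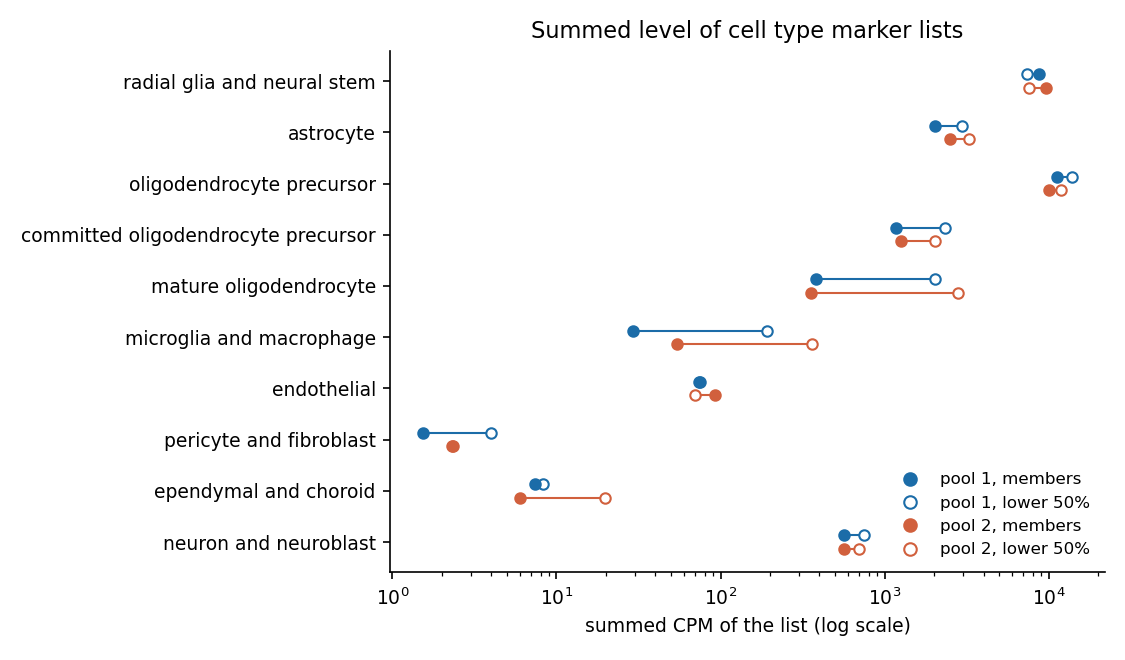
Summed level of each marker list (CPM, log axis) in high-score cells (filled) and the lower 50% (open), with 1 line per pool. Mature oligodendrocyte and microglia lists differ most, at 382 and 358 CPM against 2012 and 2798 CPM for oligodendrocytes, and the endothelial list is nearly level at 74.0 against 74.6 CPM in pool 1.

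Target lists of Sox9 and of retinoid handling did not rise as a whole. Of 14 tested genes on a list of cartilage matrix targets of SOX9, which also held Sox5 and Sox6, 1 was higher and 6 were lower. Their median was −0.64. Without barcodes of astrocyte, oligodendrocyte or microglia genes 1 of 13 was higher and 4 were lower, with a median of −0.58. The collagen gene Col11a1 was the higher one, at 604 against 363 CPM and 374 against 238 CPM (0.76 ± 0.07, edgeR adjusted p = 5.15e-06). Its partner Col11a2 was at 6.14 against 33.0 CPM and 4.71 against 17.0 CPM (−2.10 ± 0.21), and Col9a3 at 45.7 against 91.9 CPM and 30.4 against 55.6 CPM (−0.88 ± 0.12). Of 18 retinoid genes tested 2 were higher and 2 lower. Aldh1a3 (1.19 ± 0.29) was among those that rose, and Aldh1a1 (−1.84 ± 0.28) and Rxra (−0.72 ± 0.21) fell. Rxra no longer passed without those barcodes (−0.70, edgeR adjusted p = 0.0607). Aldh1a1 and Aldh1a3 both encode enzymes that make retinoic acid and went opposite ways. Among other SOX genes Sox11 was higher (0.39) and Sox8 lower (−0.47) of 11 tested. Over all genes 4.71% were called higher and 5.62% lower, and the SOX and retinoid counts were near those shares.

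Signalling lists showed small and partial differences, and without the pool as block 0 of their genes passed. Of 18 mitogen-activated kinase output genes tested 5 were higher and 1 lower, with Phlda1 (0.41) and Ccnd1 (0.36) among the 5. Of 18 immediate early genes 7 were higher and 0 lower, with a median of 0.31, among them Jun, at 397 against 334 CPM and 549.8 against 403 CPM (0.42 ± 0.07). Of 14 glycolysis genes 6 were higher, with Ldha at 353 against 192 CPM and 303 against 224 CPM (0.72 ± 0.09). Of 17 p53 targets 5 were higher, with Ccng1 (0.66) and Eda2r (0.84), while Cdkn1a itself did not pass (0.40, edgeR adjusted p = 0.26) and differed between pools, at 223 against 107 CPM in pool 1 and 159.6 against 202 CPM in pool 2. The medians of both lists differed between pools as well. As log2 CPM ratios, the glycolysis median was 0.37 in pool 1 and −0.03 in pool 2, and that of the p53 targets 0.50 and −0.02. Of 15 Notch genes 1 was higher and 2 lower, of 8 hedgehog genes the receptor component Smo was higher (0.72), of 18 BMP and TGF-beta genes 2 were higher, Bmp7 (0.67) and Tgfb2 (0.40), and 2 lower, and of 19 WNT genes 0 were higher and 1 lower. The shares called over all genes, 4.71% and 5.62%, amount to about 1 gene each way in lists of this size. The counts of the Notch, hedgehog, BMP and TGF-beta, and WNT lists were near that.

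Of 22 cholesterol synthesis genes 0 were higher and 5 lower, and of 24 synaptic and channel genes 1 was higher and 5 lower. Over all genes 4.71% were called higher and 5.62% lower, and the 1 higher synaptic and channel gene was near that share. In DESeq2 0 of the cholesterol genes and 2 of the synaptic and channel genes were lower. Gria4, an AMPA receptor subunit, was at 118.5 against 198.5 CPM and 45.8 against 169.9 CPM (−1.18 ± 0.17, edgeR adjusted p = 0.000349). Of 26 S phase genes 0 were called by edgeR or DESeq2, while at an unadjusted p under 0.05 8 were higher and 0 lower. Of 26 G2/M genes 0 were higher and 1 was lower, near the share over all genes, with 12 lower at an unadjusted p under 0.05. After thinning, cells with UMIs of at least 2 of 10 core cycling genes made up 22.5% (17.7 to 27.9%) of high-score cells and 21.0% (18.9 to 23.3%) of the lower 50% in pool 1. In pool 2 they made up 18.7% (14.2 to 24.0%) and 10.9% (9.28 to 12.7%), and without thinning the shares were 40.4% and 31.0% in pool 1 and 33.2% and 20.3% in pool 2. The 2 pools thus differed in whether the intervals overlapped. Leaving out dividing cells kept Vim higher at 2.19 (edgeR adjusted p = 1.02e-06).

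Ribosomal protein genes and nuclear RNA moved with the score. Of 76 cytosolic ribosomal protein genes, a list added after their values were seen, 75 were higher and 0 lower, with a median log2 difference of 0.50 and a range from 0.17 to 0.64. In DESeq2 74 were higher and 0 lower, and without the pool as block 0 passed in either direction. Malat1, a nuclear RNA, was at 36415 against 52993 CPM and 33086 against 46762 CPM (−0.45 ± 0.03, edgeR adjusted p = 8.54e-07). Neat1, also nuclear, went the other way, at 45.1 against 26.9 CPM and 57.6 against 34.0 CPM (0.82 ± 0.12). Of the 10 radial glia genes called higher, Vim, Tnc, Hopx, Nes, Slc1a3 and Hes1 lay above the highest value of the ribosomal genes. Without barcodes of astrocyte, oligodendrocyte or microglia genes, Slc1a3 (0.62) and Hes1 (0.59) lay below the highest ribosomal gene, Rpl12 (0.64). Vim, Tnc, Hopx and Nes stayed above it. With all barcodes, Fabp7, Phgdh, Lhx2 and Ddah1 lay within the ribosomal range. The median of all radial glia genes tested, 0.52, was close to the ribosomal median of 0.50. Hmga2, which is not on that list, lay above the ribosomal range. The part of these RNA differences in the other results was not tested.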

How the data were processed

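Per the labels, 3′ single-cell libraries of sorted glioma cells were made with 10x Genomics chemistry. Per the submitters' processing notes, Cell Ranger 6.0.2 was used with GRCm38/mm10. The authors deposited UMI counts for each gene in each barcode, with no normalization. No doublet caller was run, and removal of the 5% of cells of highest UMI count served as an alternative.

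UMIs were summed per pool into high-score cells, the middle 40% and the lower 50%, 6 sums with 2 residual degrees of freedom. They were fitted with edgeR 4.0.16 (R 4.3.3, TMM, filterByExpr, quasi-likelihood F test, pool as block, since sums of 1 pool share their tumours) on the 16859 genes listed in both pools. Adjusted p-values are Benjamini-Hochberg over genes, with a threshold of 0.05. Differences per pool are log2 CPM ratios with a prior count of 0.5. The edgeR fit was tested on simulated data. Named genes were the 15 of largest fold each way among those called, the same way in both pools and at 20 CPM or more, up to 4 called genes of each list, the rule genes, defining markers and the genes most like the score, and a few others singled out after their values were seen (such as Olig2, Sox10, Cspg4 and Neat1). The members and lists were chosen with earlier results of these data known. Barcodes were counted as astrocyte, oligodendrocyte or microglia from UMIs of at least 3 defining genes. Alternatives were DESeq2 1.42.0, other score cuts, depths, filters, scalings and cell sets, scores without 1 gene, and each pool alone. Some genes that met these rules are not reported here.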

Additional observations from a re-analysis of the deposited data

How the results depend on the processing

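With the pool as a replicate block, 666 genes were higher and 795 lower. Without the block (no replicate block) 11 were higher and 57 lower, and with DESeq2 339 and 397, all of them also among the calls with the block. Choosing cells on a random part of the counts and testing on the other part gave 346 and 406. Scores without Moxd1 gave 228 and 345, and without Cd93 408 and 453. The count of higher genes was 394 with the score on thinned cells and 1098 without Rlbp1 in the score, and the count of lower genes was 502 without cells with 2 or more UMIs of other cell types and 494 without dividing cells. The other alternatives kept both counts within 1.5 times. The cause of these shifts was not tested. Rlbp1 in cells chosen without it was 0.67 without the block (adjusted p = 0.157) and 0.64 in DESeq2 (adjusted p = 0.16). With 1 pool left out at a time, which gives values with no test, Sox9 ranged from 1.31 to 1.62, Rlbp1 from 0.19 to 0.98, Moxd1 from 1.36 to 1.52 and Cd93 from 1.72 to 2.55. Of the 30 genes of largest fold, 14 passed without the block, 28 in DESeq2, and 30 with the top 5% or with depth matched.

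Some single genes changed sign. Without cells with 2 or more UMIs of other cell types Ramp2 was at −0.12, Rsad2 at −1.51, Anln at 0.54 and Prc1 at 0.46 (adjusted p = 0.0145). Prc1 was also at 0.015 without the 5% of cells of highest UMI count and at 0.22 without dividing cells. Rsad2 was at −0.80 in pool 1 alone and at 1.66 in pool 2 alone, Mag at 0.32 without barcodes of other cell types, and Nkd1 at 0.035 with the divided counts. With Moxd1 out of the score Pdgfra was at 0.012, and with Cd93 out Pdgfb at −0.071. Pcna was at −0.29 with the top 5%, −0.034 with the thinned score, −0.095 with depth matched, −0.094 with the divided counts, −0.057 without dividing cells, and −0.054, −0.050 and −0.033 without Sox9, Moxd1 and Cd93 in the score. Dut was at −0.12 with the top 5% and −0.17 without dividing cells. Analyses of cells with Xist or with Y-linked genes alone were not run, since each kind of cell was found in 1 pool only.

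With 2 pools of mixed tumours, the spread between tumours is not measured, and calls of single genes with few UMIs in high-score cells rest on 3258610 and 3821121 UMIs in the 2 sums.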

Other observations

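Some genes outside the lists moved with the score. Htra1, a secreted serine protease, had Spearman's rho −0.08 and −0.23 with the score over thinned cells, Chst2, a sulfotransferase, −0.05 and −0.22, Sema3d, a guidance factor, −0.10 and −0.13, and Tsc22d4 −0.05 and −0.17. Each was thus more strongly tied to a low score in pool 2 than in pool 1. Vcan had the lowest mean rho of 10025 genes, at −0.15 and −0.19. Cells of a pool share a library and were thinned to 1 depth, and these values are a description of the 2 pools.

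Cells chosen by 3 genes overlapped with those chosen by 4. Leaving Rlbp1 out of the score kept 88.4% and 87.0% of high-score cells, leaving out Sox9 78.5% and 76.7%, leaving out Moxd1 69.8% and 73.3%, and leaving out Cd93 67.3% and 69.1%.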
